A study of Mus musculus with 7 samples.

Results

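Marginal zone B cells and B-1 cells are innate-like B cells that answer blood-borne and mucosal antigens quickly and with little help from T cells. The spleen holds marginal zone B cells at the border of the follicle, where the receptor NOTCH2 on the B cell meets the ligand DLL1 on stromal cells and sets their fate. Germinal centre B cells arise by another route, from activated follicular B cells with T cell help. The 10 genes described here are marker and effector genes of the marginal zone and B-1 programmes: Notch2, Dtx1, Cr2, Cd1d1, Cd9, Cd5, Zbtb32, Mzb1, Lpcat2 and Myof. They were taken by name from the array annotation, and all 10 were found among the 21515 genes with a probe of a single symbol. For Dtx1 and Cd9, which had a pair of probes each, the brighter probe was used.

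The series compared splenic germinal centre B cells of wild-type (WT) and RRas2-deficient mice, the latter lacking the small GTPase R-Ras2, encoded by Rras2. All animals had received sheep red blood cells in the peritoneum, and spleens were taken 7 days later. B220+CD95+GL7+ cells were sorted, and their RNA was read on 1 whole-transcript array per sample, with 4 WT and 3 RRas2-deficient arrays. The labels call these biological replicates without naming the animals, their age or strain, or what was removed of Rras2 and in which cells, so a probe outside a removed stretch would not show the loss, and the p-values reflect only how far these arrays scatter. The labels name no marker in the gate against marginal zone or B-1 cells, and in bulk RNA fewer cells of a type and less RNA per cell cannot be told apart.

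Values are log2 intensities as the authors normalized them, so 1 unit is a doubling, and an array has no read depth. The arrays formed 2 sets that cut across genotype, by the interquartile range of their log2 intensities. The narrower set (up to 2.49) held WT replicates 1 and 2 and RRas2-deficient replicate 2, and the wider set (from 2.69) held the other 4 arrays. Markers of germinal centre B cells averaged 8.04 to 8.12 in the narrower set and 8.75 to 9.11 in the wider set, and all but Gcnt3 of the 13 measured exceeded the silent genes described next on at least 1 array. Follicular B cell markers had the opposite order, averaging 8.23 to 8.57 in the narrower and 7.62 to 8.01 in the wider set. Rras2 itself read 7.13, 7.41, 8.66 and 8.39 in WT and 6.93, 6.68 and 7.12 in deficient cells, with no overlap. The difference was -0.99 ± 0.39 (SE), with a two-sided exact permutation p of 0.114, where 0.0286 is the smallest p the design allows. In limma its unadjusted p was 0.0415 and its adjusted p 1.00. With the array set as a block it differed by -1.13 ± 0.20 (unadjusted p = 0.000769, adjusted p = 0.296), and by -0.59 and -1.499 within the narrower and wider arrays.

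Whether a gene was readable at all was judged against 1358 olfactory and vomeronasal receptor genes, which B cells do not use. The 95th percentile of these silent genes lay between 4.25 and 4.74 on the 7 arrays. Of the 10 genes, 8 exceeded it on every array. Lpcat2 exceeded it only on RRas2-deficient replicate 2, and Cd1d1 on none. All 10 passed the filter on dim genes, which kept 16136 genes with a mean of at least 3.48 over the 7 arrays.

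None of the 10 genes changed between the genotypes past a limma adjusted p of 0.05, against 2 of all 16136 genes tested (0.0124%). None reached an unadjusted p of 0.05 either, as 0.818% of all tested genes did, and in all of them the genotypes overlapped, where 1.08% of all tested genes had no overlap. The adjusted p was 1.00 for each of the 10. In the deficient cells 8 of the 10 had a lower mean and 2 a higher mean, whereas 51.7% of all tested genes had a higher mean. The median difference of the 10 was -0.091, against 0.0049 over all tested genes. Without RRas2-deficient replicate 2 the count was 5 lower and 5 higher, with a median of -0.023. That array gave the lowest value of 5 of the genes (Cr2, Cd1d1, Cd9, Mzb1 and Myof) and the highest of another 2 (Notch2 and Lpcat2), so it was at one end for 7 of 10, against 41.1% of all tested genes.

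**Figure D1:**
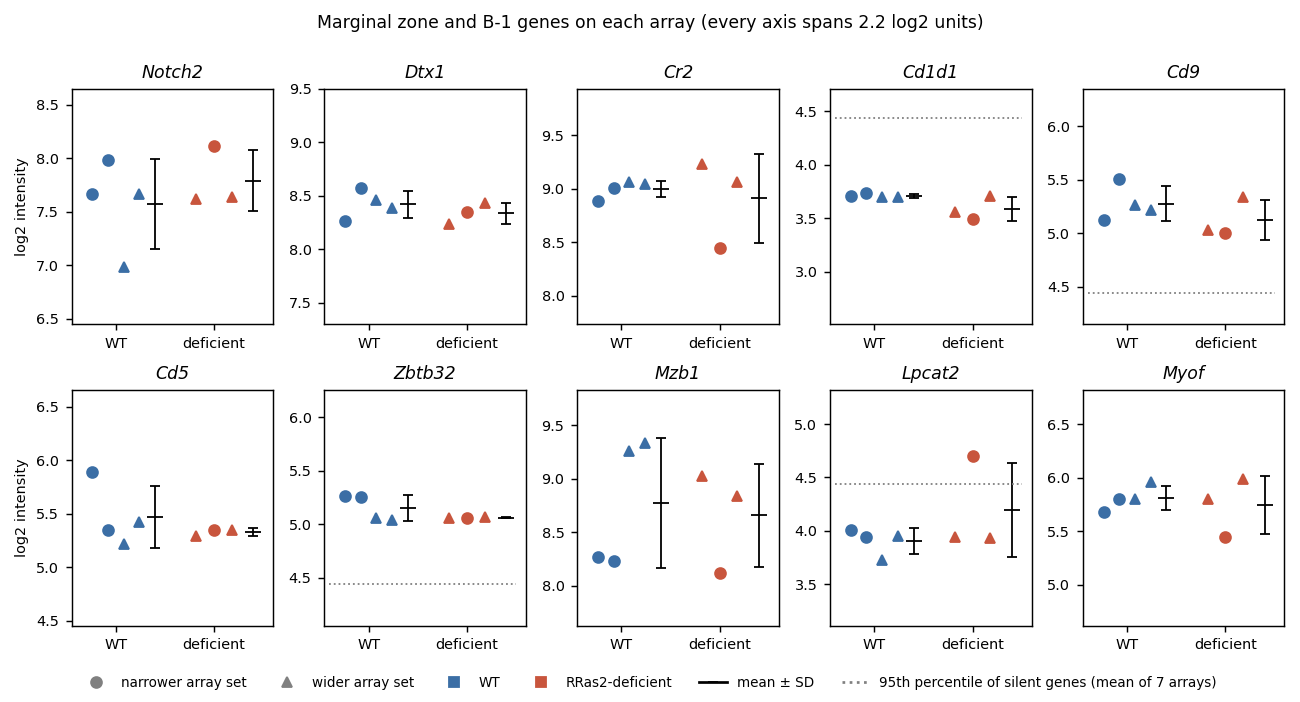
Log2 intensity (y axis) of the 10 genes on each array, by genotype, with circles for the narrower and triangles for the wider array set, mean ± SD beside each group (n = 4 WT, n = 3 RRas2-deficient) and the silent-gene level as a dotted line where it falls in the panel. The groups overlap in every panel, Mzb1 parts by array set, and Cd1d1 lies under the dotted line on all 7 arrays.

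Notch2, the receptor that directs B cells to the marginal zone fate, read 7.66, 7.98, 6.99 and 7.66 in WT cells, in the order of the replicate numbers as for every gene here, and 7.61, 8.12 and 7.64 in deficient cells. WT replicate 3 stood lowest and RRas2-deficient replicate 2 highest, and the other deficient arrays lay within the WT range. The means were 7.57 ± 0.42 (SD, n = 4) and 7.79 ± 0.28 (SD, n = 3), a log2 difference of 0.22 ± 0.25 (SE) or 1.16-fold, with a 95% interval from -0.38 to 0.82. The difference was 0.29 within the narrower and 0.30 within the wider arrays. Leaving out WT replicate 3 gave 0.020, leaving out RRas2-deficient replicate 2 gave 0.053, and leaving out WT replicate 2 gave 0.35. Once the set was fitted as a block, Notch2 differed by 0.30 over all 7 arrays and by 0.30 without RRas2-deficient replicate 2. In that fit it differed by 0.13 without WT replicate 3 and by 0.47 without WT replicate 4. Leaving out RRas2-deficient replicate 2 thus lowered the difference only without the block, and leaving out WT replicate 3 lowered it in either fit. All 3 narrower arrays read at least as high as the 4 wider ones.

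Dtx1 encodes deltex-1, a ubiquitin ligase that is switched on by Notch signals and marks marginal zone B cells. Its brighter probe read 8.26, 8.57, 8.46 and 8.39 in WT and 8.23, 8.34 and 8.43 in deficient cells. The values interleaved, and the whole range over 7 arrays was 0.34. The difference was -0.083 ± 0.10 (SE), with a 95% interval from -0.33 to 0.16, and it was -0.073 and -0.089 within the narrower and wider arrays. Leaving out RRas2-deficient replicate 1 or WT replicate 2 brought it to -0.031 or -0.033, and leaving out WT replicate 1 or RRas2-deficient replicate 3 to -0.13. The dimmer probe of the gene behaved otherwise, at 5.98, 6.25, 6.66 and 6.25 in WT and 5.94, 6.93 and 6.15 in deficient cells. It differed by 0.058, with opposite signs in the narrower (0.82) and wider (-0.41) arrays. Thus the Dtx1 probes disagreed in sign, and the dimmer one took both its lowest and its highest value in deficient cells.

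No gene of the Notch pathway passed the test, Notch2 and Dtx1 included. Of 35 tested pathway genes other than Notch2 and Dtx1, 16 had a higher and 19 a lower mean in deficient cells, with a median difference of -0.0010, and 0 passed the limma test or reached an unadjusted p of 0.05. With the array set as a block 6 of the 35 reached an unadjusted p of 0.05 (2 higher and 4 lower), where 10.1% of all tested genes did, and 0 passed after adjustment. The direction of the list's median turned with the block (0.0081) and on leaving out single arrays, from -0.037 without WT replicate 1 to 0.037 without RRas2-deficient replicate 2. The 4 of lowest unadjusted p were Lfng, Jag2, Dll1 and Notch3. Lfng, a glycosyltransferase that modifies Notch receptors and favours their response to delta-like ligands, read 6.92, 6.95, 6.36 and 6.92 in WT and 7.16, 7.38 and 6.92 in deficient cells. Its difference was 0.37 ± 0.19 (SE), and WT replicate 3 was again lowest. With the block Lfng differed by 0.42 ± 0.14 (unadjusted p = 0.0226, adjusted p = 0.419) and Notch3 by 0.33 ± 0.11 (unadjusted p = 0.0195, adjusted p = 0.410). Dll1, the ligand for marginal zone fate, differed by 0.17 ± 0.12, Notch3, a related receptor, by 0.27 ± 0.19 and the ligand gene Jag2 by -0.13 ± 0.082. Notch3 exceeded the silent-gene level on 1 array, and Jag2, Dll4, Jag1 and Maml3 on none.

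Cr2 encodes the complement receptors CD21 and CD35, high on marginal zone B cells and on follicular dendritic cells. It read 8.89, 9.005, 9.06 and 9.04 in WT and 9.23, 8.44 and 9.06 in deficient cells. The WT arrays lay within 0.17 of each other, and the deficient arrays held both the highest and the lowest of the 7 values. The means were 8.999 ± 0.078 (SD, n = 4) and 8.91 ± 0.41 (SD, n = 3), a difference of -0.088 ± 0.19 (SE) with a 95% interval from -0.54 to 0.36. The sign turned to 0.15 without RRas2-deficient replicate 2, and the value was -0.25 and -0.16 without replicates 1 and 3 of that genotype and -0.15 with the array set as a block. It also differed between the array sets, at -0.50 in the narrower and 0.093 in the wider arrays. Of 13 measured markers of follicular dendritic, stromal and endothelial cells, 3 (Clu, Dcn and Vwf) were under the silent-gene level on all arrays, and the list averaged 4.70 to 4.90 in WT and 4.74 to 4.97 in deficient cells. That mean was highest on RRas2-deficient replicate 2, where Cr2 was lowest, but every narrower array (4.90 to 4.97) exceeded every wider one (4.70 to 4.75). How much follicular dendritic cell RNA added to the Cr2 values was not tested.

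Cd1d1, whose product presents lipids to natural killer T cells and is high on marginal zone B cells, read 3.71, 3.73, 3.69 and 3.69 in WT and 3.55, 3.49 and 3.71 in deficient cells. All 7 values were under the silent-gene level, so the difference of -0.12 ± 0.082 (SE) lay among values that silent genes also gave. Its 95% interval ran from -0.32 to 0.071, and without RRas2-deficient replicate 2 it was -0.078.

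Cd9, a tetraspanin on marginal zone B cells, B-1 cells, plasma cells and platelets, read 5.13, 5.50, 5.26 and 5.22 in WT and 5.03, 5.002 and 5.34 in deficient cells. RRas2-deficient replicates 1 and 2 were the lowest of the 7, and replicate 3 was higher than all WT arrays except WT replicate 2. The means were 5.28 ± 0.16 (SD, n = 4) and 5.12 ± 0.19 (SD, n = 3), a difference of -0.15 ± 0.13 (SE) with a 95% interval from -0.47 to 0.16. It was -0.077 without WT replicate 2, -0.091 without RRas2-deficient replicate 2, -0.26 without RRas2-deficient replicate 3 and -0.037 when both probes were averaged. The dimmer Cd9 probe, under the silent-gene level throughout, differed by 0.078. Of 9 measured platelet and erythroid markers, 4 (Pf4, Ppbp, Klf1 and Car1) were under that level on all arrays. Gp9 of the same list read 5.64 to 6.19 and, like Ermap and Epor, exceeded it on all 7. The part of platelet RNA in the Cd9 values was not tested.

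Cd5, an inhibitory surface receptor that defines B-1a cells and is also carried by T cells, read 5.89, 5.35, 5.22 and 5.42 in WT and 5.29, 5.35 and 5.35 in deficient cells. WT replicate 1 stood above the rest, and the other 6 arrays lay between 5.22 and 5.42. The difference was -0.14 ± 0.16 (SE), with a 95% interval from -0.53 to 0.25, and without WT replicate 1 it was -0.0012, and -0.22 without WT replicate 3. The markers of T and NK cells also averaged highest on WT replicate 1, at 4.56 against 4.00 to 4.26 on the other arrays. That array also had the highest silent-gene level, at 4.74, above this mean. Of the 14 T and NK cell markers measured, 9 were under the silent-gene level on all arrays, among them Cd3d, Cd3e, Cd8a and Cd8b1. In all they averaged 4.00 to 4.56 in WT and 4.02 to 4.23 in deficient cells, and their part in the Cd5 value was not tested.

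Zbtb32, a zinc finger repressor that restrains antibody responses, read 5.27, 5.26, 5.06 and 5.04 in WT and 5.06, 5.06 and 5.07 in deficient cells. WT replicates 1 and 2 were higher than the other 5 arrays, which lay within 5.04 to 5.07. The difference was -0.094 ± 0.092 (SE), with a 95% interval from -0.31 to 0.12. Its value was -0.20 for the narrower set and 0.012 for the wider set, and -0.057 or -0.060 without WT replicate 1 or WT replicate 2. Zbtb32 is the only one of the 10 on chromosome 7, where Rras2 lies, with 599 tested genes between them.

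Mzb1 encodes a protein of the endoplasmic reticulum that helps assemble and secrete immunoglobulin, and marks marginal zone B cells, B-1 cells and plasma cells. It read 8.27, 8.23, 9.26 and 9.34 in WT and 9.03, 8.12 and 8.84 in deficient cells. The values parted first by array set, at 8.12 to 8.27 on the narrower and 8.84 to 9.34 on the wider arrays. Among the 10 genes, Cr2 was the other whose array sets did not overlap, which held for 40.5% of all tested genes. Within each set every deficient array read lower than every WT array, by 0.13 in the mean of the narrower and 0.37 in that of the wider arrays, and Mzb1 alone of the 10 did so. Over all tested genes 7.64% were lower in this way and 6.70% higher.

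Without regard to set the Mzb1 difference was -0.11 ± 0.37 (SE), with a 95% interval from -0.999 to 0.77. With the array set as a block in limma it was -0.27 ± 0.092 (SE), a 95% interval from -0.49 to -0.057, with an unadjusted p of 0.0201 and, over all tested genes, an adjusted p of 0.415. In that fit an unadjusted p of 0.05 was reached by 2 of the 10 genes, Mzb1 and Lpcat2, and by 10.1% of all tested genes, while 0 of the 10 and 0.0124% of all tested genes passed the adjusted threshold. With the block and 1 array left out, the Mzb1 difference ran from -0.37 to -0.20, and its unadjusted p exceeded 0.05 without WT replicate 4 or RRas2-deficient replicate 3. Without the block its sign turned on leaving out RRas2-deficient replicate 2 (0.16), or either wider WT array, replicate 3 (0.047) or replicate 4 (0.074). When the interquartile range was fitted as a covariate instead of the set, Mzb1 differed by only -0.038 ± 0.13 (SE). The size of its difference thus depended on how the spread of the arrays was fitted.

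**Figure D2:**
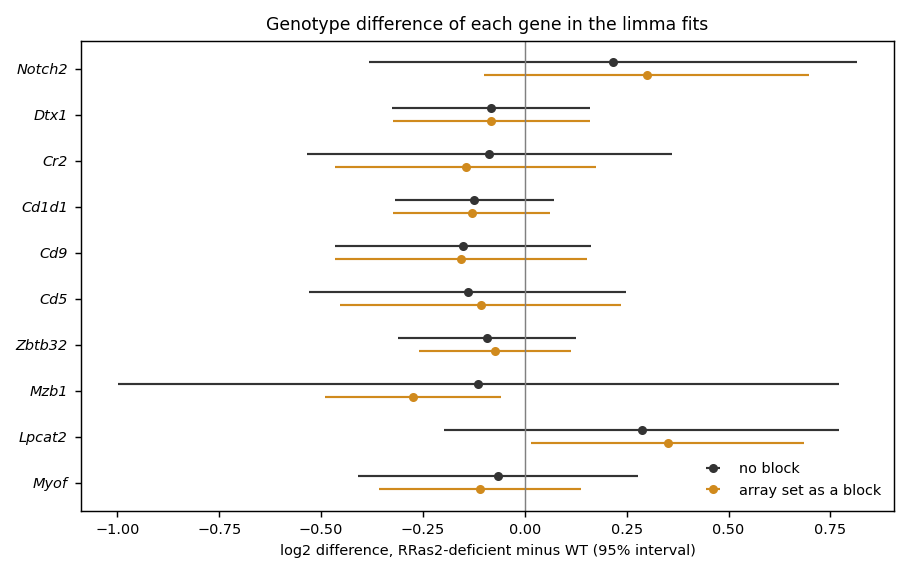
Log2 difference, RRas2-deficient minus WT (x axis, 95% interval), of the 10 genes in limma over all 7 arrays, without a block (black) and with the array set as a block (orange). Intervals without the block all include 0, and with it those of Mzb1 (below 0) and Lpcat2 (above 0) do not, though neither passed after adjustment over all tested genes.

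Plasma cell genes had lower means in the deficient cells, as Mzb1 did, without passing the test. Of 14 plasmablast and plasma cell markers other than Mzb1, all 14 had a lower mean, with a median difference of -0.13, against 7796 of all 16136 tested genes. Of the 14, 0 passed the limma test or reached an unadjusted p of 0.05. All 14 were lower too when the set was a block, with a median of -0.25. In that fit 6 of 8 pan-B, 10 of 13 germinal centre and 2 of 8 follicular B cell markers were lower, beside 50.9% of all tested genes. Without the block the pan-B and germinal centre counts were 4 of 8 and 6 of 13. With the interquartile range as a covariate instead of the set, these counts were 4 of 8 and 2 of 13. An unadjusted p of 0.05 was reached with the block by 3 plasma cell, 2 pan-B and 3 germinal centre markers, all lower. Of all tested genes 10.1% did so in either direction. Without the block, the count of lower plasma cell markers fell to 8 of 14 without WT replicate 3 or without RRas2-deficient replicate 2. It was 10 without WT replicate 4, 11 on the narrower arrays alone and 12 after a further quantile normalization. With the interquartile range as a covariate it was 11, with a median of -0.070. Their mean intensity was 7.04, 7.12, 7.44 and 7.28 in WT and 7.10, 6.89 and 7.07 in deficient cells, so the genotypes overlapped. Tnfrsf17, the receptor that sustains long-lived plasma cells, was the only 1 of the 14 under the silent-gene level on all arrays.

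Jchain, which joins secreted IgM and IgA, followed the array sets as Mzb1 did, at 9.08, 8.67, 10.48 and 10.03 in WT and 10.06, 7.76 and 9.89 in deficient cells. Its difference was -0.33 ± 0.68 (SE), and -0.62 ± 0.21 with the block (adjusted p = 0.419). Slamf7, a surface receptor of plasma cells, differed by -0.083 ± 0.40. Ell2, an elongation factor that promotes secretory immunoglobulin messages, ran against the sets, at 9.76 to 10.31 on the narrower and 6.72 to 8.52 on the wider arrays, and differed by -0.66 ± 0.90. The part of plasma cell RNA in the Mzb1 values was not tested.

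**Figure D3:**
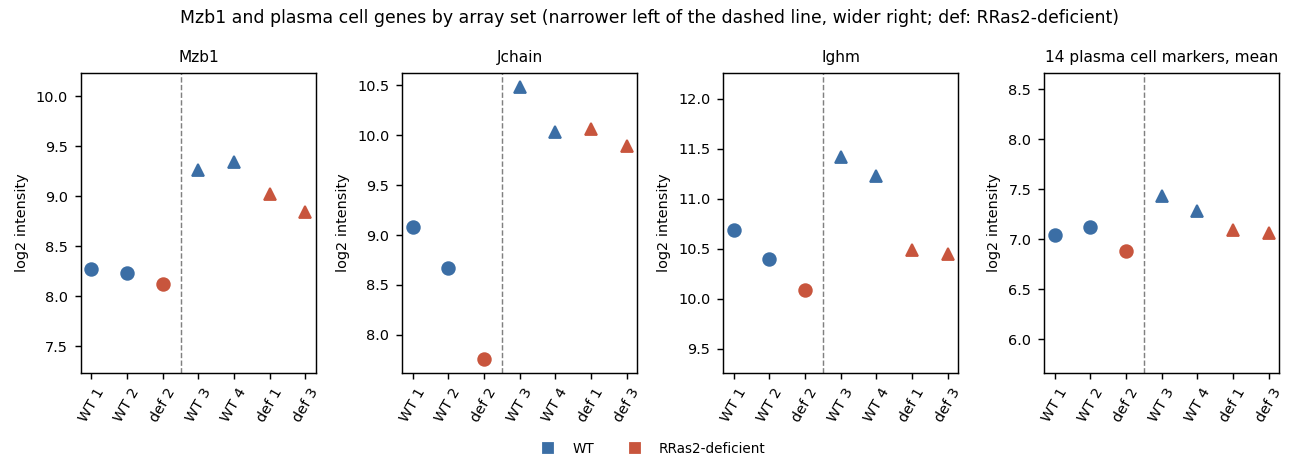
Log2 intensity (y axis) of Mzb1, Jchain, Ighm and the mean of 14 plasma cell markers on each array (x axis), narrower set left and wider set right of the dashed line, WT blue and RRas2-deficient red; each axis spans 3 log2 units. Within either set deficient arrays lie below WT arrays for Mzb1, Ighm and the marker mean, and for Jchain in the narrower set.

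Lpcat2, an acyltransferase that makes platelet-activating factor and remodels phosphatidylcholine, read 4.01, 3.94, 3.73 and 3.95 in WT and 3.95, 4.70 and 3.94 in deficient cells. RRas2-deficient replicate 2 stood apart, and the other deficient arrays lay within the WT range. The difference was 0.29 ± 0.20 (SE) or 1.22-fold, with a 95% interval from -0.20 to 0.77, and 0.35 ± 0.14 with the array set as a block (unadjusted p = 0.0423, adjusted p = 0.475). It was 0.033 without RRas2-deficient replicate 2, and 0.10 in the same block without it. Since Lpcat2 exceeded the silent genes on that array alone, both values rest on 1 array.

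Myof encodes myoferlin, a membrane protein of the ferlin family that takes part in membrane repair and receptor recycling. It read 5.68, 5.80, 5.80 and 5.96 in WT and 5.80, 5.45 and 5.99 in deficient cells. As with Cr2, deficient arrays gave both the highest and the lowest value. The difference was -0.066 ± 0.14 (SE), with a 95% interval from -0.41 to 0.28, and its sign turned to 0.083 without RRas2-deficient replicate 2. It was -0.19 without RRas2-deficient replicate 3, -0.11 without WT replicate 1, -0.017 without WT replicate 4 and -0.11 with the array set as a block.

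Repeated values were common in the deposited intensities. For 5 of the 10 genes (Notch2, Cd1d1, Cd5, Zbtb32 and Myof) at least 2 arrays held the same value to 8 decimals, as in 48.3% of all tested genes. Cd5 and Myof each had 1 value on 3 arrays.

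Other genes of the marginal zone and B-1 programmes were read beside these. Of 25 other marginal zone genes 9 had a higher and 16 a lower mean in deficient cells (median -0.033), and of 20 other B-1 genes 10 were higher and 10 lower (median 0.0021). None passed the limma test. An unadjusted p of 0.05 was reached by 1 of the 25 marginal zone genes, beside 0.818% of all tested genes, and 2 of the 25 had no overlap between genotypes, beside 1.08%. The marginal zone list had 15 higher and 10 lower without WT replicate 2 (median 0.0061), 13 and 12 without WT replicate 4 (0.013) and 14 and 11 without RRas2-deficient replicate 2 (0.0067). That gene was Fcrl5, which encodes a receptor related to Fc receptors and found on innate-like B cells, at 5.85, 6.12, 6.16 and 6.06 in WT and 5.39, 5.43 and 5.61 in deficient cells. All its deficient arrays were lower than all WT arrays, with a difference of -0.57 ± 0.11 (SE), an unadjusted limma p of 0.00127 that became 1.00 on adjustment.

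Tlr7, a sensor of single-stranded RNA, did not overlap either, at 4.90 to 4.97 in WT and 4.49 to 4.89 in deficient cells, with the nearest arrays of the genotypes at 4.89 and 4.90. Its lowest value, on RRas2-deficient replicate 2, was under the silent-gene level of that array (4.54), and the other 6 arrays exceeded theirs. Icam1, which holds marginal zone B cells in place as a ligand of the integrin LFA-1, differed by -0.21 ± 0.14, and Tlr3, under the silent-gene level, by 0.23 ± 0.14. Among the B-1 genes, the IgM heavy chain gene Ighm read 10.69, 10.39, 11.42 and 11.23 in WT and 10.49, 10.09 and 10.45 in deficient cells. Deficient arrays were lower within each array set, and the difference was -0.59 ± 0.27 (SE), or -0.69 ± 0.12 with the block (unadjusted p = 0.000824, adjusted p = 0.296). Ptpn22, a phosphatase that dampens antigen receptor signals, differed by -0.22 ± 0.11, the inhibitory lectin gene Siglecg by 0.10 ± 0.079 and the integrin gene Itgam, under the silent-gene level, by 0.11 ± 0.11.

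**Figure D4:**
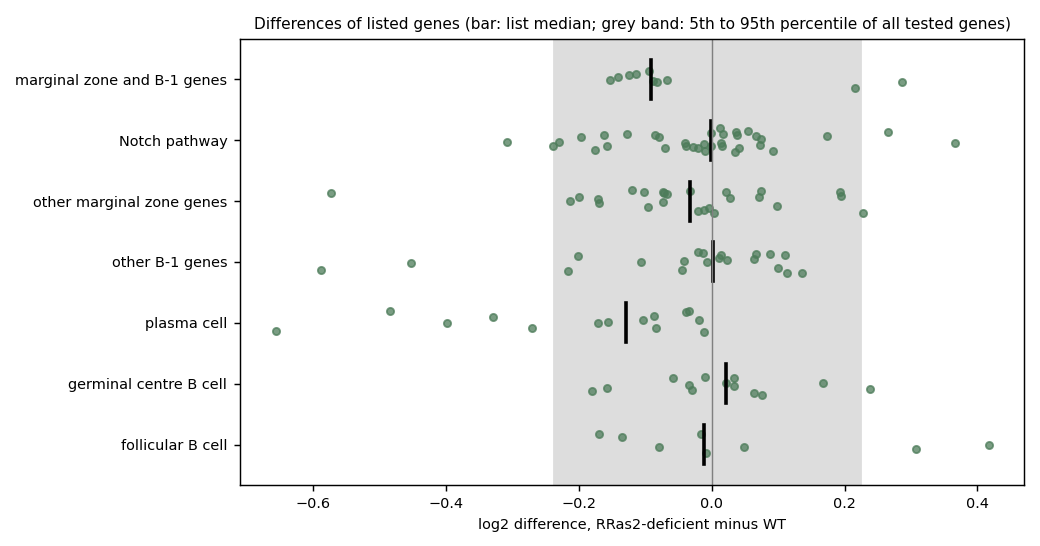
Log2 difference, RRas2-deficient minus WT (x axis), of each tested gene in 7 lists, with a bar at each list's median and a grey band from the 5th (-0.24) to the 95th percentile (0.23) of all 16136 tested genes. Of the 10 marginal zone and B-1 genes only Lpcat2 lies outside the band; all 14 plasma cell markers lie left of 0.

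Markers of neighbouring cell states overlapped between the genotypes. Of 8 follicular B cell markers 3 had higher and 5 lower means (median -0.012), but 6 were higher and 2 lower when the array set was a block (0.12). The same 6 to 2 count arose on leaving out WT replicate 2 (0.13) or RRas2-deficient replicate 1 (0.16), so the list had no settled direction. The mean of these markers was 7.62 to 8.41 in WT and 7.87 to 8.57 in deficient cells. Fcer2a, the low-affinity IgE receptor CD23 that separates follicular from marginal zone B cells, read 10.37, 10.37, 9.83 and 10.28 in WT and 10.88, 10.64 and 10.37 in deficient cells. Deficient replicate 3 equalled WT replicates 1 and 2 and no deficient array was lower than a WT array. The difference was 0.42 ± 0.18 (SE) with an unadjusted limma p of 0.0548 (adjusted p = 1.00), or 0.45 ± 0.16 with the array set as a block (unadjusted p = 0.0281, adjusted p = 0.435). The 8 pan-B markers averaged 10.28 to 10.83 in WT and 10.29 to 10.72 in deficient cells, and the 20 myeloid and dendritic markers 4.15 to 4.41 and 4.24 to 4.56, of which 10 were under the silent-gene level on all arrays. Of the 16 myeloid and dendritic markers tested, 12 had higher and 4 lower means in deficient cells (median 0.068), and 13 and 3 with the block (0.12). That count was 8 and 8 without RRas2-deficient replicate 3, 9 and 7 without WT replicate 3, and 7 and 9 on the narrower arrays alone.

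Genes whose pattern over the 7 arrays was most like that of 2 marginal zone surface genes were found by the root mean square difference of gene-centred log2 values. For Cr2 they were Parp11 (0.055), Prune1 (0.063) and Treml2 (0.066), against 0.23 for the spread of Cr2 itself, and all 3 also had their lowest value on RRas2-deficient replicate 2. For Cd1d1 they were Slc39a7 (0.024), Prss22 (0.026) and Malt1 (0.038), against 0.086 for Cd1d1 itself, which was under the silent-gene level.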

How the data were processed

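The values the authors deposited are log2 intensities. Per the submitters' processing notes, RMA and the package oligo were used, in versions and against a genome build not given in the sources used here. Probes with a single symbol in the platform annotation were used (22225 of 25349), the brightest probe per gene was kept, and the dimmest 5379 genes, those below the 25th percentile of gene means (3.48), were left out, which kept 16136. Genotypes were compared with limma 3.58.1 in R 4.3.3 (lmFit, eBayes, two-sided, no covariate, Benjamini-Hochberg over the 16136 genes, threshold 0.05), and errors of differences are limma's moderated SE. The fit was tested on simulated data. Arrays were divided at the widest gap in interquartile range over all probes, and values by set are descriptive. Other lists are described by counts and medians only. The members, lists, array sets and alternatives were chosen with earlier results of these data known. Named list genes are the 4 of lowest unadjusted p in the Notch, marginal zone and B-1 lists and, for cell types, the 3 brightest, of which those bearing on a member are printed. Markers named as under the silent-gene level, Tnfrsf17 among them, were added after their values were seen, and for Cr2 and Cd1d1 the 3 genes of most alike pattern are named. Chromosomes come from a RefSeq table (GRCm38.p6), whose start positions were used only to count the tested genes between Zbtb32 and Rras2. Alternatives were dim-gene filters, probe averaging, quantile normalization, centring, a robust prior with an intensity trend, weighting of arrays (statmod 1.5.0), blocks and covariates, single array sets and leaving out each array. The counts of lower means under these were added after seeing the data.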

Additional observations from a re-analysis of the deposited data

How the results depend on the processing

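None of the 10 genes passed the adjusted threshold under any alternative, and Notch2, Dtx1, Cd1d1, Cd9, Cd5 and Lpcat2 kept their direction in all of them that tested them; the 50th percentile filter left out Cd1d1 and Lpcat2. Cr2 turned to 0.066 with array weights and, on the wider arrays alone, to 0.093; there Zbtb32 turned to 0.012 and Myof to 0.013. Leaving out 1 array, with or without the array set as a block, gave -0.25 to 0.15 for Cr2, -0.37 to 0.16 for Mzb1, -0.19 to 0.083 for Myof and -0.13 to 0.012 for Zbtb32. With the replicate number as a replicate block, which also leaves out WT replicate 4, Mzb1 turned to 0.074 and 0 genes passed. Same-numbered arrays deviated together in 2 of 3 pairs (correlations -0.59, 0.78 and 0.66). Arrays of the same set but different numbers did so too. The correlation was 0.72 for WT replicate 1 with RRas2-deficient replicate 2, and 0.66 for WT replicate 3 with RRas2-deficient replicate 1. The labels give the numbers no meaning, so same-numbered arrays were not taken as pairs. Over all tested genes the count of 2 became 1 with centred arrays, 5 with array weights, 0 on either array set alone and 0 to 2 with 1 array left out. The cause of these turns was not tested, except that fits on 1 set hold fewer arrays. The number of arrays limits the precision, and signal near the silent genes limits Cd1d1 and Lpcat2.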
